A study of Mus musculus with 6 samples.

Results

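The genes described here encode the interleukin-1 (IL-1) system, named by a fixed list of 7 genes: the ligand genes Il1b and Il1a, the antagonist Il1rn, the decoy receptor Il1r2, the shared receptor subunit Il1rap, and Casp1 and Nlrp3 of the inflammasome. Of these 7 genes, 6 had values among the 23016 genes of the count table, and Il1a was not analysed here. The study profiled single cells of wild-type mice in 6 libraries, 1 library per group, and compared aged with young mice and stroke with steady state. The groups were marrow of aged mice and of young mice taken 24 h after an experimental stroke by middle cerebral artery occlusion, marrow of untreated aged mice and untreated young mice, and blood of untreated aged mice and untreated young mice. Marrow was enriched for Gr1+ and c-kit+ cells, and blood was sorted into CD11b+ Ly6G- and CD11b+ Ly6G+ cells, so shares of cell types were set in part by the sort. The labels give no ages in weeks and do not say how many mice each library holds, and no group had a second library.

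IL-1 beta, the product of Il1b, is made as a precursor that caspase-1 (Casp1) cuts after an inflammasome such as the one built on NLRP3 has formed. The mature cytokine signals when the receptor IL1R1 and the accessory protein IL1RAP come together on a cell. The receptor antagonist (Il1rn) occupies IL1R1 without a signal, and IL1R2 binds the cytokine without a signalling domain, so it acts as a decoy. Neutrophils and monocytes are known producers of the cytokine, and neutrophils are known to carry the decoy receptor.

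The sequences before the RefSeq starts of Il1b and Il1r2 are shown because the levels of these 2 genes followed different patterns over neutrophil maturation and after stroke. Each runs 5′ to 3′ over the 250 bases before the gene start of the RefSeq entry, on GRCm38.p6. The Il1b sequence lies at chr2:129371140-129371389 on the minus strand, where the capitals mark the TATA motif TATAAA, and the Il1r2 sequence lies at chr1:40085843-40086092 on the plus strand, where the capitals mark the 2 E-boxes CACGTG, a motif searched for only after the sequence had been read.
Il1b: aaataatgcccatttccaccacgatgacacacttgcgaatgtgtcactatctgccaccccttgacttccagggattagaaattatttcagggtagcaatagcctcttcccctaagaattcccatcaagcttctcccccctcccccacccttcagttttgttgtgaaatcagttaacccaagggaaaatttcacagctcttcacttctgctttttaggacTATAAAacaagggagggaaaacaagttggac
Il1r2: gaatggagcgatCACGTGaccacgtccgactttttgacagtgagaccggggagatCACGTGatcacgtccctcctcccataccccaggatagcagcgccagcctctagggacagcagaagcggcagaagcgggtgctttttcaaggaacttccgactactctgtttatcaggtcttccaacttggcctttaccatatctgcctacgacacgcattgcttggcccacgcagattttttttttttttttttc
The TATA motif began 31 bases before the Il1b start, and the E-boxes began 238 and 195 bases before the RefSeq start of Il1r2. Counted on both strands, TATAAA stood in 12.4% and CACGTG in 6.02% of the 32851 RefSeq promoters of the same length. The C/EBP motif TTGCNNAA, the PU.1 motif GAGGAA and the AP-1 motif TGANTCA stood in 9.56%, 23.3% and 6.75% of promoters. A narrow form of the NF-kB motif stood in 1.41%. The C/EBP, PU.1 and AP-1 motifs and this NF-kB form had no match in either sequence. Wider forms of the NF-kB motif were not searched for, so the search does not show that either sequence lacks an NF-kB site. In the GENCODE annotation of GRCm38, Il1b spans chr2:129364570-129371139 on the minus strand and overlaps the antisense gene Il1bos, which reached at most 14.4 CPM (UMIs per 1000000 UMIs of a cell class in a library) in any cell class used here. Il1r2 spans chr1:40074079-40125231 on the plus strand, so the RefSeq start used for the printed sequence lies downstream of the GENCODE start and the sequence lies inside the GENCODE gene. Il1r2 also encloses Gm37347 on the same strand, which reached at most 80.7 CPM.

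Cells were clustered within stroke marrow, steady marrow and blood apart, without the IL-1 genes, and clusters were named from marker genes, so each name means cells like that type. The neutrophil series ran from dividing pre-neutrophil-like cells through early and late immature neutrophil-like cells to mature neutrophil-like cells, and monocytes were classical monocyte-like or, in blood, non-classical monocyte-like. A level is the number of UMIs (unique molecules) of a gene in a class of cells of a library, scaled to a total of 1000000 UMIs and written as CPM, with a 95% interval for counting error only, and levels of different genes are not compared. The 6 libraries held 2236 to 8213 cells and 10208699 to 72743805 UMIs, and median depth per cell was 3810.5 to 9302 UMIs. The highest share of mitochondrial UMIs in a cell was near 9.9% in both stroke libraries and near 4.9% in the 4 others. The stages were not matched between stroke and steady marrow: late immature cells held 7123 and 5379 CPM of Camp, a granule gene of immature stages, in aged and young marrow after stroke, against 35880 and 28440 CPM in aged and young steady marrow. Classical monocytes held 4.21 and 12.1 CPM of Cx3cr1, a receptor gene of later monocytes, in aged and young marrow after stroke, against 180 and 190 CPM in aged and young steady marrow. Mature neutrophils numbered 25 and 58 in aged and young marrow after stroke, none in steady marrow, and 3098 and 1566 in aged and young blood.

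**Figure D1:**
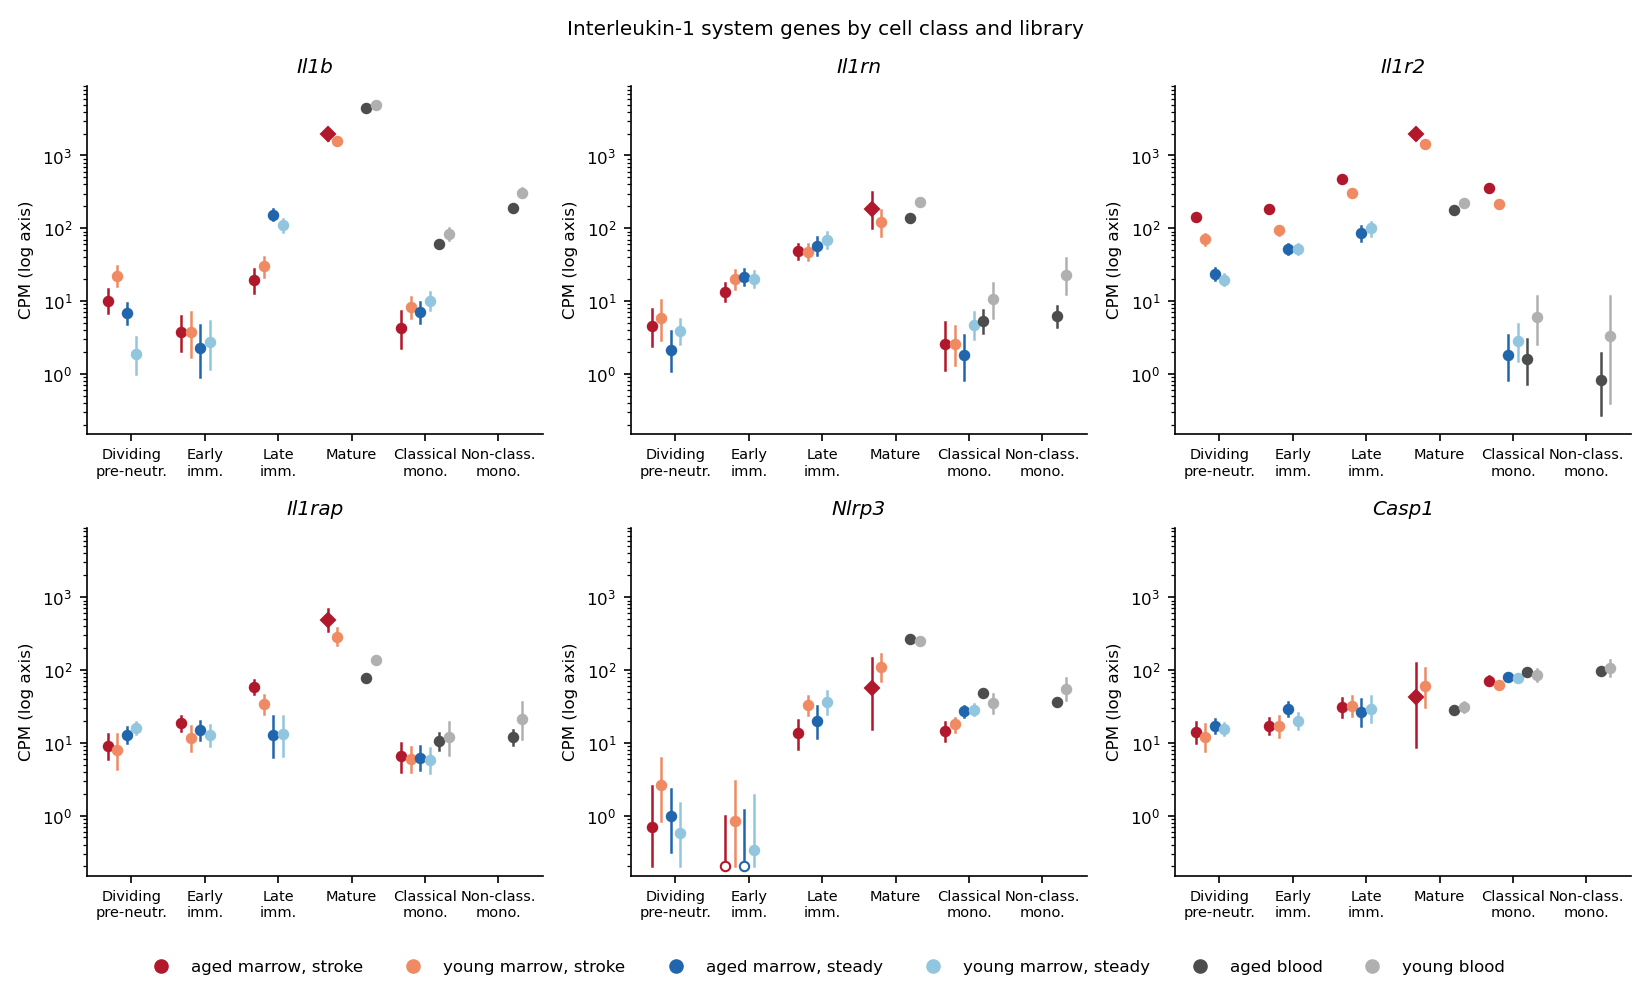
Level of each of the 6 genes (CPM, log axis) across neutrophil-like stages and monocyte-like classes in the 6 libraries; points are sums over cells, bars are 95% Poisson intervals for counting error, diamonds mark classes of under 30 cells, and open markers at the lower edge mark 0 UMIs. Il1b was highest in mature neutrophils of blood, at 4528 CPM in aged and 4944 CPM in young blood, and Il1r2 in mature neutrophils of marrow after stroke, at 1996 CPM in aged and 1427 CPM in young marrow.

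Il1b, the ligand gene, was low in dividing and early immature neutrophils and high in mature ones. In dividing cells it stood at 10.1 and 22.1 CPM in aged and young marrow after stroke, and at 6.86 and 1.87 CPM in aged and young steady marrow. In early immature cells it stood at 3.70 and 3.73 CPM in aged and young marrow after stroke, and at 2.27 and 2.71 CPM in aged and young steady marrow. In late immature cells it stood at 19.45 and 30.1 CPM in aged and young marrow after stroke, below the 154 and 111 CPM of aged and young steady marrow. The steady values of the late stage rested on few cells, since the 10 richest cells held 50% of the 132 UMIs in aged and 60.6% of the 94 UMIs in young steady marrow. Mature neutrophils held 1967 CPM (interval 1652 to 2326) and 1588 CPM (1418 to 1774) in aged and young marrow after stroke, and 4528 CPM (4491 to 4565) and 4944 CPM (4888 to 5000) in aged and young blood. The mature stage was thus above the late stage in every library that held both, and blood was above marrow. A UMI of Il1b was found in 98.4% and 98.5% of mature neutrophils of aged and young blood at median depths of 4004 and 3892 UMIs, against 27.1% and 44.4% of NK cells at 5722 and 5518 UMIs, a class not known for this gene.

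Monocytes held far lower Il1b. Classical monocytes stood at 4.21 and 8.19 CPM in aged and young marrow after stroke, at 7.08 and 10.1 CPM in aged and young steady marrow, and at 61.2 and 84.3 CPM in aged and young blood. NK cells of the same blood libraries, a class not known for this gene, stood at 53.2 and 103 CPM, and the counting intervals of classical monocytes and NK cells overlapped in both libraries. Non-classical monocytes of blood held 191 and 309 CPM in aged and young mice. These values were above those of NK cells and of B lineage cells, which held 49.9 and 151 CPM in aged and young blood, while the 22 T cells of aged blood held 192 CPM. The erythroid class of blood held 630 and 1301 CPM in aged and young mice, but 1 of its 2 clusters had the neutrophil genes Retnlg, S100a9, S100a8 and Cxcr2 among its leading genes, so it is not set against the monocytes.

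Il1rn, the receptor antagonist gene, increased over the neutrophil stages in each marrow library. In aged and young marrow after stroke it stood at 4.55 and 5.78 CPM in dividing cells, 13.5 and 19.9 CPM in early immature cells and 48.3 and 47.65 CPM in late immature cells. In aged and young steady marrow it stood at 2.16 and 3.89 CPM in dividing cells, 21.7 and 20.3 CPM in early immature cells and 57.2 and 69.7 CPM in late immature cells. Mature neutrophils held 187 and 121 CPM in aged and young marrow after stroke, from 13 and 24 UMIs, and 139.7 and 230.2 CPM in aged and young blood. The order of stages was therefore the same after stroke and at steady state. Classical monocytes held 1.82 to 10.5 CPM over the 6 libraries, and non-classical monocytes held 6.27 and 22.9 CPM in aged and young blood.

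Il1r2, the decoy receptor gene, was higher after stroke in all 3 immature stages of the neutrophil series and in classical monocytes. In dividing cells it stood at 143 and 70.9 CPM in aged and young marrow after stroke, against 23.5 and 19.7 CPM in aged and young steady marrow. In early immature cells it stood at 182 and 93.2 CPM in aged and young marrow after stroke, against 52.5 and 51.8 CPM in aged and young steady marrow. In late immature cells it stood at 469.5 and 309 CPM in aged and young marrow after stroke, against 85.2 and 99.3 CPM in aged and young steady marrow. Both stroke libraries lay above both steady libraries at each of these 3 stages, and aged was above young after stroke at each of them. Mature neutrophils held 1996 CPM (1678 to 2357) and 1427 CPM (1266 to 1603) in aged and young marrow after stroke, and 179 CPM (172 to 187) and 224 CPM (213 to 237) in aged and young blood. Blood after stroke was not analysed here and no mature class was found in steady marrow, so tissue and stroke cannot be told apart in that last pair.

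Classical monocytes of marrow showed the largest difference in Il1r2. They held 355 CPM (334 to 376) and 214 CPM (201 to 228) in aged and young marrow after stroke, against 1.82 CPM (0.832 to 3.46, 9 UMIs) and 2.80 CPM (1.49 to 4.79, 13 UMIs) in aged and young steady marrow. Classical monocytes of aged and young blood held 1.59 and 6.02 CPM, from 9 and 8 UMIs, near the steady marrow values. A UMI was found in 124 of 131 cells (94.7%) and 178 of 199 cells (89.45%) in aged and young marrow after stroke, at median depths of 21600 and 20620 UMIs, against 1.54% and 1.77% of cells in aged and young steady marrow, at 7282 and 6198 UMIs. With each cell thinned to 1000 UMIs the shares were 29.8% and 24.1% in aged and young marrow after stroke, against 0.342% and 0.295% in aged and young steady marrow. In the stroke libraries a UMI was found in 1.22% and 1.67% of T cells at median depths of 4874 and 5960 UMIs in aged and young mice, and in 18.3% and 9.46% of granulocyte progenitors at 53680 and 55820 UMIs.

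The level was not spread evenly over the other cells of the stroke libraries. T cells held 2.32 and 2.38 CPM, conventional dendritic cells 13.8 and 19.5 CPM, and granulocyte progenitors 5.64 and 2.57 CPM in aged and young marrow after stroke. B lineage cells held 44.4 CPM in aged marrow after stroke, all 9 UMIs in 1 cell, and 0 in young marrow after stroke. Within the monocytes, 1 cluster held 475 and 248 CPM and another 291 and 181 CPM in aged and young marrow after stroke, while the 3 clusters of steady marrow held at most 3.65 CPM. Neutrophil markers summed to 4388 and 5583 CPM in these monocytes of aged and young marrow after stroke, against 2246 and 2095 CPM in aged and young steady marrow, with all 10 markers found in each of these libraries. Most of the higher sum was the granule gene Lcn2. It alone held 3197 and 3657 CPM in aged and young marrow after stroke, against 327 and 296 CPM in aged and young steady marrow. In the stroke fit of these monocytes 4 of the 10 markers passed higher and 2 passed lower. Where the UMIs of these markers came from was not tested. The UMIs of Il1r2 per UMI of Retnlg, a resistin-like gene of neutrophils, were 1.14 and 0.63 in monocytes of aged and young marrow after stroke, against 0.101 and 0.071 in mature neutrophils, 0.012 and 0.00802 in late immature cells and 0.0411 and 0.0234 in early immature cells of the same libraries. Per UMI of Cxcr2, a chemokine receptor gene of neutrophils, they were 8.11 and 8.34 in monocytes, against 0.858 and 0.751 in mature neutrophils. For the granule genes Ngp and Lcn2 the order was the other way: 1.99 and 0.596 per UMI of Ngp in monocytes, against 5.56 and 5.55 in mature neutrophils, and 0.111 and 0.0585 per UMI of Lcn2 in monocytes, against 0.537 and 0.279 in mature neutrophils. Monocytes were thus above mature neutrophils for 2 of these 4 genes and below them for the other 2. Mature cells held only 25 and 51 UMIs of Ngp. Late immature cells held 0.0323 and 0.0275 per UMI of Ngp and 0.0346 and 0.0245 per UMI of Lcn2. Early immature cells held 0.00521 and 0.00247 per UMI of Ngp and 0.00831 and 0.00423 per UMI of Lcn2. Monocytes were above late and early immature cells for all 4 genes.

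**Figure D2:**
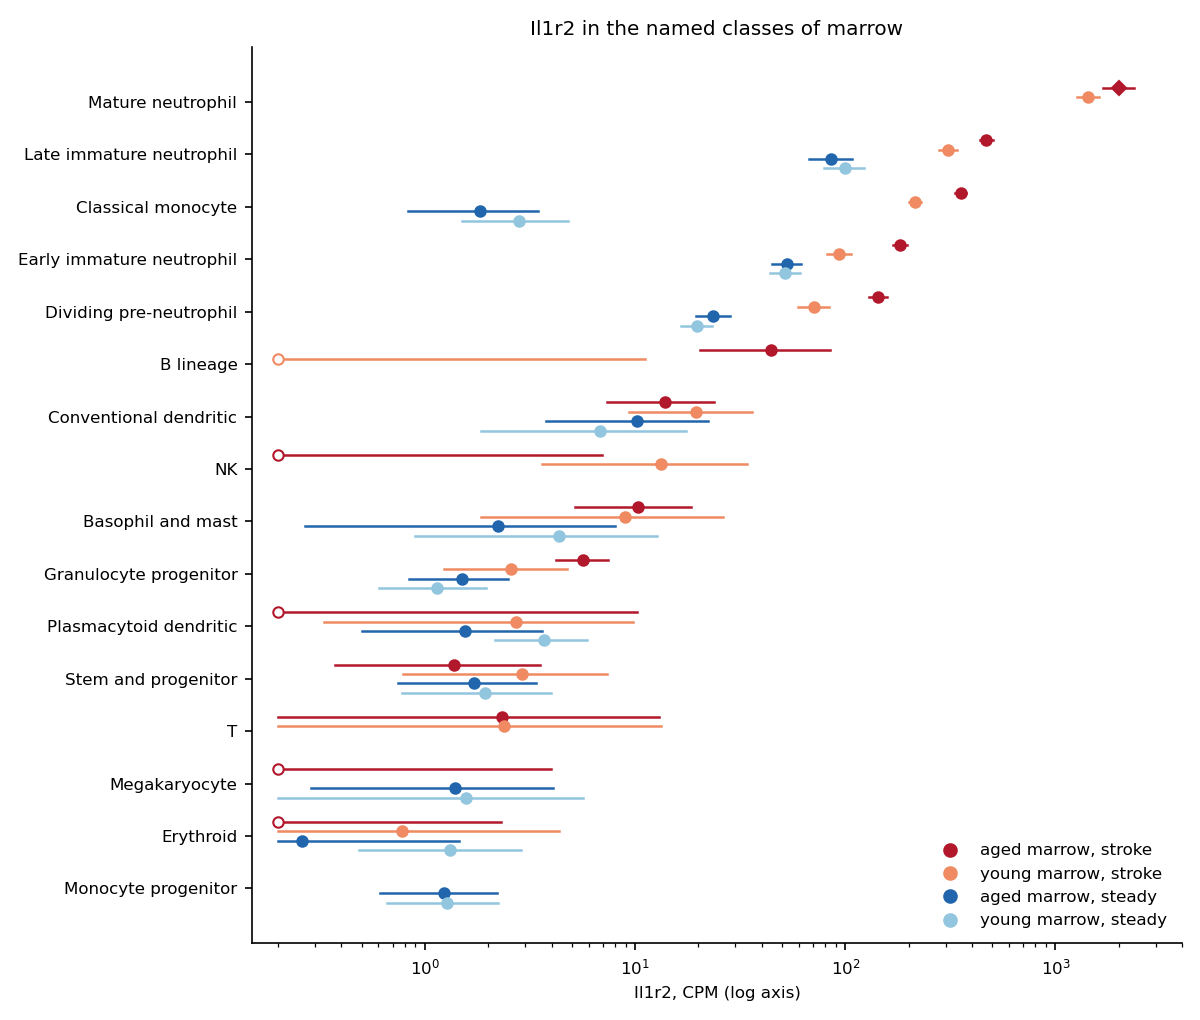
Il1r2 level (CPM, log axis) in the named cell classes of aged and young stroke and steady marrow, without blood. Each marker is a sum over the cells of a class with its 95% Poisson interval, and open markers stand for 0 UMIs. Among classes of stroke marrow the neutrophil-like stages and classical monocyte-like cells stood above T cells, at 2.32 CPM in aged and 2.38 CPM in young marrow.

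Il1rap, the shared receptor subunit gene, was highest in mature neutrophils. In dividing cells it stood at 9.09 and 7.88 CPM in aged and young marrow after stroke, against 12.9 and 15.8 CPM in aged and young steady marrow, and in early immature cells at 18.8 and 11.6 CPM after stroke, against 14.9 and 12.9 CPM at steady state. In late immature cells it stood at 58.4 and 33.7 CPM in aged and young marrow after stroke, against 12.8 and 13 CPM in aged and young steady marrow, from 11 UMIs each. The late stage was thus the only one of these 3 in which both stroke libraries lay above both steady libraries. Mature neutrophils held 488 and 287 CPM in aged and young marrow after stroke, from 34 and 57 UMIs, and 76.7 and 137 CPM in aged and young blood. Classical monocytes held 5.81 to 12.0 CPM over the 6 libraries, and non-classical monocytes 11.9 and 21.25 CPM in aged and young blood. Its partner Il1r1, the signalling receptor gene, held at most 2.34 CPM in any neutrophil or monocyte class.

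Nlrp3, the sensor gene of the inflammasome, was near 0 in dividing and early immature cells, with at most 2.63 CPM, and higher in late and mature cells. Late immature cells held 13.4 and 33.0 CPM in aged and young marrow after stroke, and 19.85 and 36.6 CPM in aged and young steady marrow. Mature neutrophils held 57.4 and 111 CPM in aged and young marrow after stroke, from 4 and 22 UMIs, and 264.5 and 253 CPM in aged and young blood. Blood was above marrow, in the same order as for Il1b. Classical monocytes held 14.6 and 17.9 CPM in aged and young marrow after stroke, against 26.9 and 28.6 CPM in aged and young steady marrow, and held 48.3 and 35.4 CPM in aged and young blood. Non-classical monocytes held 36.1 and 55.6 CPM in aged and young blood.

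Casp1, the protease gene, did not follow neutrophil maturation as closely and was higher in monocytes than in neutrophils of the same library. Neutrophil stages ranged over 12.1 to 60.5 CPM, where the 2 highest values came from 3 and 12 UMIs of mature cells in aged and young marrow after stroke. Classical monocytes held 71.6 and 63.0 CPM in aged and young marrow after stroke, 81.1 and 77.1 CPM in aged and young steady marrow, and 94.5 and 86.5 CPM in aged and young blood. Non-classical monocytes held 97.3 and 108 CPM in aged and young blood. NK cells of blood held 63.8 and 30.6 CPM, so the gene was not limited to myeloid cells.

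Stroke was compared with steady state in marrow over 4 libraries, with age as a term, on counts summed per library over early and late immature neutrophils and over classical monocytes. The test was edgeR's quasi-likelihood test with Benjamini-Hochberg adjustment over all genes, at an adjusted p below 0.05. This design leaves 1 residual degree of freedom, which is how far the stroke difference varied between the aged and young libraries. The test shares this spread across genes, and no p measures the spread between mice of a group. Library preparation and stroke cannot be told apart. In immature neutrophils 24.1% of 8637 genes passed, 14.4% higher and 9.73% lower after stroke, and 3 of the 6 genes passed. With library sizes alone in place of TMM scaling, the median of all genes moved by -0.26 (log2) and higher genes made up 26.1% of those called, against 59.7%.

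With early and late immature neutrophils joined, Il1r2 and Il1rap were higher and Il1b was lower after stroke. The Il1rap and Il1b calls did not hold in the early stage alone. Il1r2 had a log2 fold change of 2.06 (SE 0.139, edgeR adjusted p = 3.99e-12), and it passed under every alternative run, at 1.63 to 2.26. Il1rap had a log2 fold change of 1.11 (SE 0.209, edgeR adjusted p = 0.000206), which rested on the late stage: with late clusters alone it was 2.03 (edgeR adjusted p = 2.05e-08), and with early clusters alone 0.41 (edgeR adjusted p = 0.264). Il1rap also missed the threshold with DESeq2 (1.10, adjusted p = 0.102) and with coarser clusters (0.57, edgeR adjusted p = 0.0640). Il1b had a log2 fold change of -1.32 (SE 0.226, edgeR adjusted p = 6.74e-05), and it turned round with early clusters alone (0.85, edgeR adjusted p = 0.279) and with coarser clusters (0.71, edgeR adjusted p = 0.365), while late clusters alone gave -2.21 (edgeR adjusted p = 8.86e-21). The late steady values of Il1b rested on few cells, as given above. Coarser clusters left 320 and 175 immature cells in aged and young marrow after stroke, with joined immature and mature neutrophils unchanged at 458 and 359. Immature cells were thus named mature in that setting, so for Il1b and Il1rap it is not a check apart from stage. Il1rn (0.06), Nlrp3 (0.53, edgeR adjusted p = 0.276) and Casp1 (0.03) did not pass. The median log2 fold change of the 6 genes was 0.29, against -0.01 over all genes tested. Late cells made up 171 of 433 and 161 of 301 immature cells in aged and young marrow after stroke, against 119 of 593 and 150 of 708 in aged and young steady marrow, and the part of this in the 3 calls was tested only through the single-stage fits above.

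In classical monocytes of marrow only Il1r2 passed among the 6 genes, in a fit in which 44.1% of 11133 genes passed, 22.8% higher and 21.4% lower after stroke. Its log2 fold change was 7.34 (SE 0.232, edgeR adjusted p = 2.92e-12), the sixth highest fold of all genes tested, and it was 6.84 to 7.70 under the alternatives run, all past the threshold. As a ratio of CPM it was 195-fold higher in aged marrow (log2 7.61, counting interval 6.68 to 8.74) and 76.5-fold higher in young marrow (log2 6.26, 5.48 to 7.17). Several genes of lowest p were the same in both stroke fits, among them Gm10736, Gm3699, Ftl1 and Sec61g. In classical monocytes Gm3699 rose by 4.83 (log2), Ftl1 by 4.54 and Sec61g by 3.98, against 4.22, 3.835 and 3.32 in immature neutrophils. What raised these genes in both cell types was not tested. Nlrp3 had a log2 fold change of -0.34 (edgeR adjusted p = 0.163), and it passed with library sizes alone (-0.77, edgeR adjusted p = 0.000913) and without the dividing clusters of steady marrow (-1.17, edgeR adjusted p = 3.13e-05). That last refit removed cells from steady marrow only. The steady cluster left held 114 CPM of the division gene Mki67, while a stroke cluster at 342 CPM stayed in, so dividing cells were not matched. Il1rap (0.48, edgeR adjusted p = 0.264), Casp1 (0.19, edgeR adjusted p = 0.286), Il1rn (0.07) and Il1b (-0.04) did not pass. The median of the 6 genes was 0.13, against -0.02 over all genes, and library sizes alone moved the median of all genes by -0.43 and the share of higher genes among those called to 20.2%, against 51.6%. Of the 10 neutrophil markers 4 passed higher in these monocytes after stroke, led by Lcn2 (3.88) and Cxcr2 (2.16), and 2 passed lower, Ltf (-0.85) and Ngp (-0.46); their part in the Il1r2 difference was not tested.

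**Figure D3:**
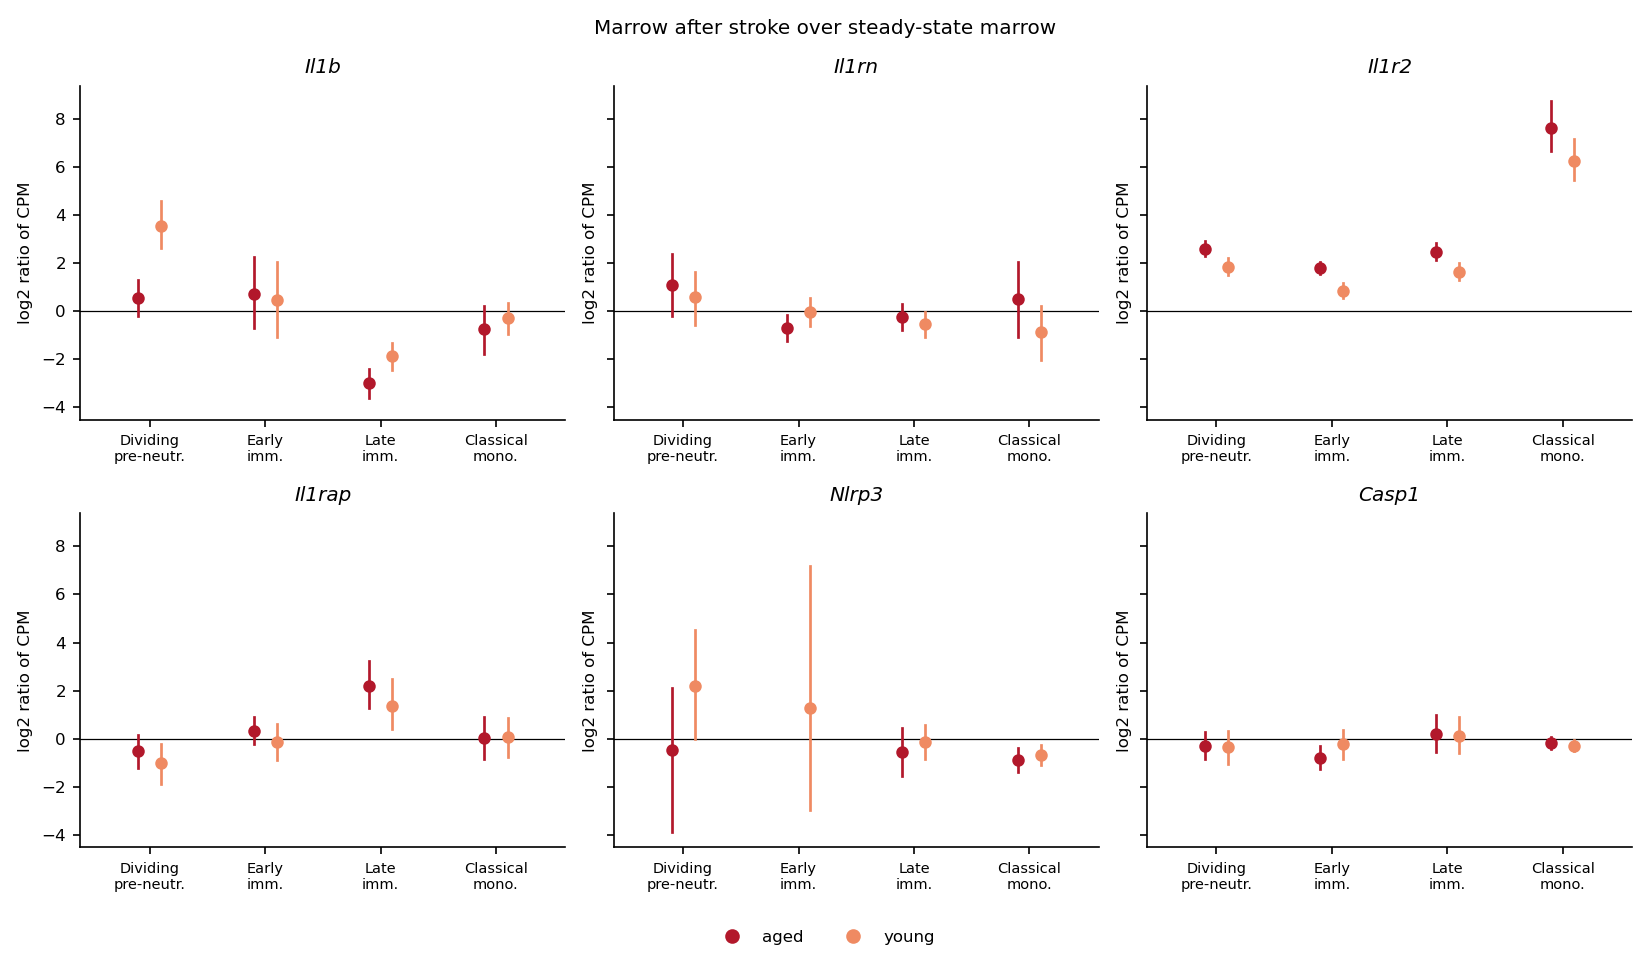
Log2 ratio of CPM, stroke over steady marrow, for each of the 6 genes by cell class, in aged and in young mice; bars are 95% intervals for counting error and the line at 0 marks equal levels. Il1r2 lay above 0 in all 4 classes in both ages, up to 7.61 in aged and 6.26 in young classical monocyte-like cells, and Il1b lay below 0 in late immature cells, at -2.99 in aged and -1.89 in young marrow.

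Lists of neighbouring genes were measured in the same stroke fits: other genes of the IL-1 family and its receptors (10 with values), inflammasome genes and the proteases that act beside them (20), and signalling genes downstream of the receptor (21). In immature neutrophils 1 of 4 family genes tested passed: Il1f9, which encodes the IL-36 gamma cytokine, rose by 1.70 (log2), with 130.8 and 180 CPM in late cells of aged and young marrow after stroke, against 64.2 and 93.4 CPM in aged and young steady marrow. Of 17 inflammasome genes 3 passed higher and 3 lower, with a list median of 0.15. The 3 lower ones were Elane (-2.40), Ctsg (-1.32) and Prtn3 (-0.79), the serine protease genes of primary granules, and the higher ones included Nlrp12 (0.71) and Txnip (0.39). Of 21 signalling genes 3 passed higher, Nfkbia (0.88), an inhibitor of NF-kB, Irak4 (0.62), a receptor-proximal kinase, and Myd88 (0.41), the receptor adaptor, and 1 passed lower, the kinase gene Irak1 (-0.69), with a list median of 0.05. The share called was below or near the 24.1% of all genes for the family (1 of 4) and signalling (4 of 21) lists, and 6 of 17 for the inflammasome list.

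In classical monocytes 2 of 5 family genes passed, both higher after stroke: Il1f9 (3.16), at 12.6 and 11 CPM in aged and young marrow after stroke against 2.23 and 1.29 CPM in aged and young steady marrow, and Il18rap (2.01), the accessory chain of the IL-18 receptor, at 25.6 and 17.2 CPM against 6.67 and 7.32 CPM. Of 19 inflammasome genes 3 passed higher and 6 lower, with a list median of -0.27. The largest changes were Elane (-1.13), the elastase inhibitor gene Serpinb1a (1.12), the pyrin gene Mefv (-0.95), Naip5 (-0.87), a sensor of bacterial proteins, and Pycard (0.79), the adaptor that joins NLRP3 to caspase-1. Pycard stood at 986 and 824 CPM in aged and young marrow after stroke, against 727 and 673 CPM in aged and young steady marrow. Of 21 signalling genes 4 passed higher and 5 lower, with a list median of -0.25, and the largest were Tnfaip3 (-2.08), a brake on NF-kB with at most 9.26 CPM, Nfkbia (1.42), Myd88 (1.06), the ubiquitin ligase gene Peli1 (-0.82) and Tab2 (-0.77), an adaptor of the kinase TAK1. These counts, 2 of 5, 9 of 19 and 9 of 21, stood beside the 44.1% of all genes called. Stress-response genes moved as well: of those tested, 5 of 7 rose and 1 fell in immature neutrophils and 5 of 9 rose and 1 fell in monocytes. Over all genes 14.4% passed higher and 9.73% lower in immature neutrophils, and 22.8% higher and 21.4% lower in monocytes.

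Age was compared over all 6 libraries, with tissue and stroke as terms, on early, late and mature neutrophils joined and on classical monocytes, and none of the 6 genes passed in either. In neutrophils 0.0392% of 10215 genes passed (4 genes, the interferon-response genes Ifi27l2a, Oasl2 and Ifit1 and the early-response gene Egr1, all lower in aged mice). Il1rn had the largest difference relative to its SE among the 6, a log2 fold change of -0.42 (SE 0.143, unadjusted p = 0.0155, edgeR adjusted p = 0.709), and was the 1 gene of the 6 at an unadjusted p below 0.05. Nlrp3 stood at -0.52 (SE 0.284, edgeR adjusted p = 0.799), Il1b at -0.37 (SE 0.251, edgeR adjusted p = 0.831), Il1rap at -0.26 (edgeR adjusted p = 0.867), Casp1 at 0.03 and Il1r2 at 0.02. The median of the 6 genes was -0.31, against 0.01 over all genes. Leaving out either blood library left the age difference to be set by the marrow libraries alone, so the 2 refits are the same contrast. Nlrp3 was -1.48 without aged blood and -1.48 without young blood, and Il1b was -0.57 without aged blood. The joined neutrophils held 25 mature cells of 458 in aged and 58 of 359 in young marrow after stroke. A difference in stage mix thus entered the joined test and both refits. In immature marrow cells only, Il1b had the opposite sign.

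In classical monocytes 0.0518% of 11581 genes passed with age (6 genes), 0.0432% higher and 0.00863% lower in aged mice, and none of the 6 IL-1 genes was among them. Il1b stood at -0.58 (SE 0.175, unadjusted p = 0.00522, edgeR adjusted p = 0.604) and at 0.01 once the 10 cells of each library richest in these genes were left out. Those cells were picked by the same genes, and 10 were taken from 98 young and from 455 aged blood monocytes alike. A larger share of the young class was thus removed, so that refit cannot show whether the -0.58 rested on few cells. Il1rn stood at -0.88 (SE 0.407, unadjusted p = 0.0489, edgeR adjusted p = 1.0), Il1r2 at 0.32, Casp1 at 0.10, Nlrp3 at 0.01 and Il1rap at -0.02, all of them past no threshold after adjustment. The median of the 6 genes was -0.01, against 0.00 over all genes. No gene of the 3 neighbouring lists passed with age in either cell type. Those with the highest mean CPM in neutrophils were Il18rap (172 CPM), Il1f9 (149.7) and Il18r1 (18.4) of the family, Serpinb1a (513), Txnip (421) and Ninj1 (93.1) of the inflammasome list, and Zfp36 (348), Nfkbia (243) and Nfkbiz (118) of the signalling list. In monocytes they were Il18 (17.7), Il18rap (10.7) and Sigirr (6.67) of the family, Prtn3 (801), Pycard (647) and Elane (448) of the inflammasome list, and Nfkbia (177), Zfp36 (164) and Tab2 (122) of the signalling list.

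The direction with age depended on the context for Il1r2. After stroke the log2 ratio of CPM, aged over young, was 1.01 (counting interval 0.72 to 1.3) in dividing cells, 0.97 (0.75 to 1.19) in early immature cells, 0.61 (0.43 to 0.78) in late immature cells, 0.48 (0.18 to 0.78) in mature cells and 0.73 (0.60 to 0.85) in classical monocytes. All 5 intervals lay above 0. In steady marrow it was 0.25 in dividing, 0.02 in early, -0.22 in late cells and -0.62 in classical monocytes, with every interval including 0. In mature neutrophils of blood it was -0.32 (-0.42 to -0.23). These intervals do not cover differences between mice, since each group was 1 library, and the difference between contexts was not tested.

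**Figure D4:**
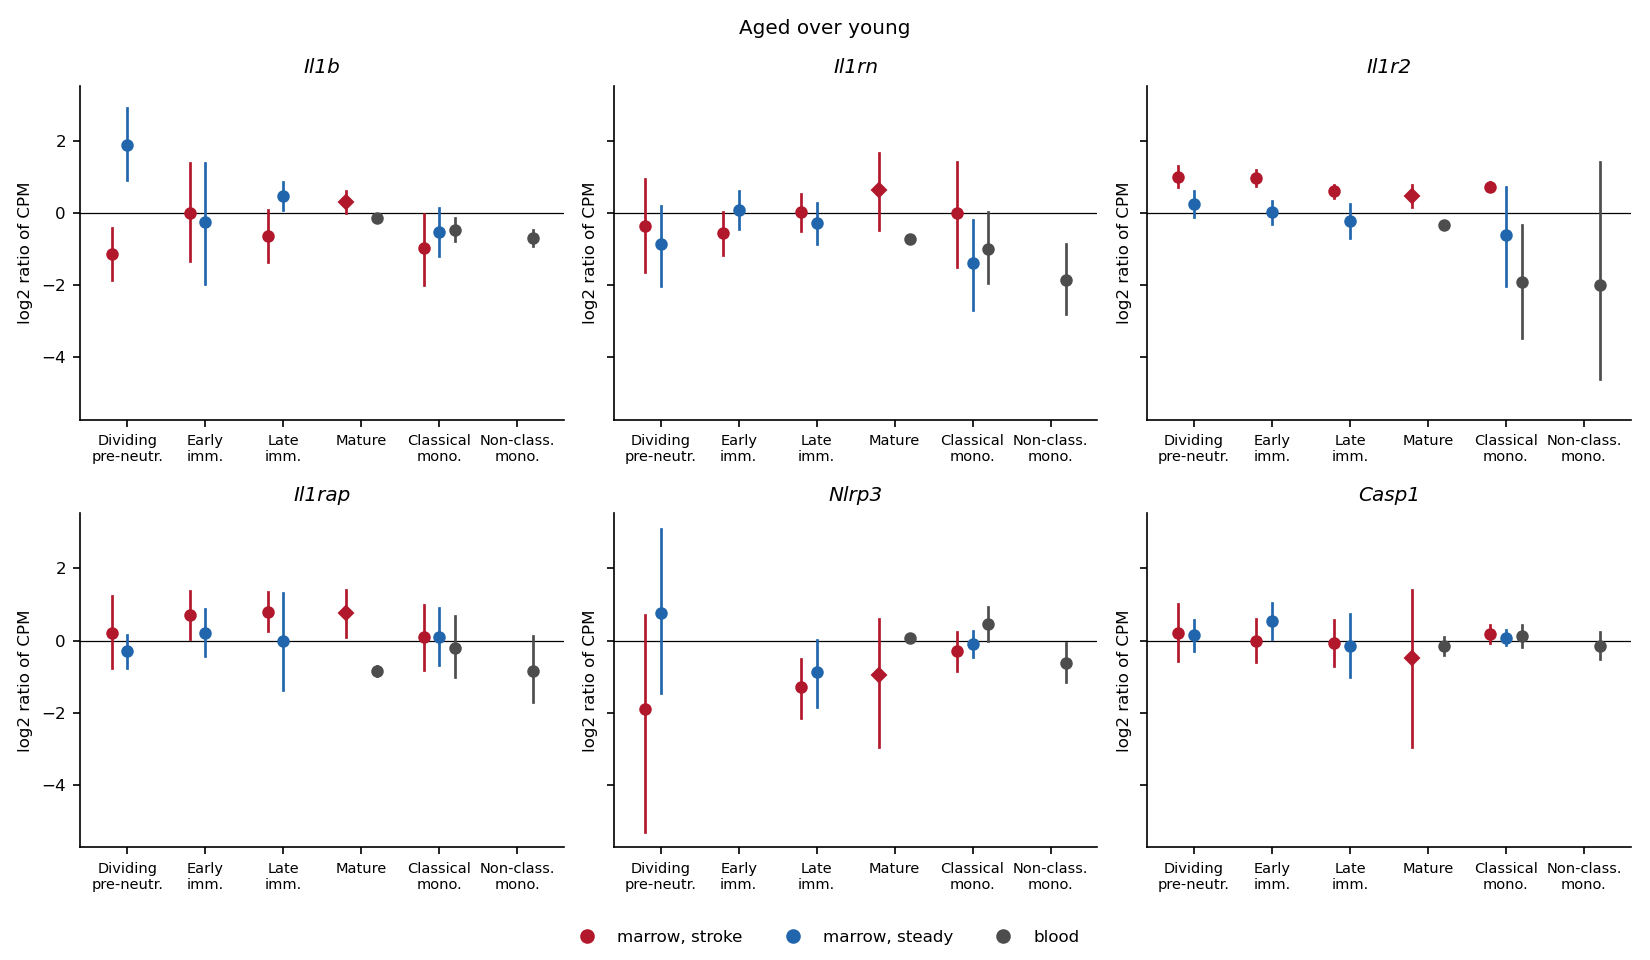
Log2 ratio of CPM, aged over young, for each of the 6 genes by cell class, in stroke marrow, steady marrow and blood; bars are 95% intervals for counting error. Il1r2 lay above 0 in all 5 classes of stroke marrow (0.48 to 1.01) and at -0.32 in mature neutrophil-like cells of blood.

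In mature neutrophils of blood 4 of the 6 genes were lower in the aged library beyond counting error. Il1rap had a log2 ratio, aged over young, of -0.84 (-0.98 to -0.71), Il1rn of -0.72 (-0.82 to -0.62), Il1r2 as above and Il1b of -0.13 (-0.15 to -0.11). Casp1 stood at -0.15 (-0.41 to 0.11) and Nlrp3 at 0.06 (-0.02 to 0.15), both with intervals that included 0. The mature cells of the 2 libraries fell in different clusters: clusters 0 and 1 held 1396 and 1358 aged cells against 86 and 57 young cells, and cluster 2 held 33 aged against 1051 young cells. Within clusters Il1rn was lower in aged blood in 5 of 5: 128 against 223 CPM in cluster 0, 154 against 309.7 CPM in cluster 1, 129.8 against 229 CPM in cluster 2, 135 against 216 CPM in cluster 4 and 184 against 253.5 CPM in cluster 9, where the counting intervals overlapped. Il1rap was lower in aged blood in 4 of 5, from 24.05 against 80.0 CPM in cluster 9 to 108 against 127 CPM in cluster 1, and stood at 50.3 against 47.9 CPM in cluster 0. Stress-response genes summed to 8510 and 10420 CPM in mature neutrophils of aged and young blood and to 3030 and 2839 CPM in those of aged and young marrow after stroke, and their part in these ratios was not tested.

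**Figure D5:**
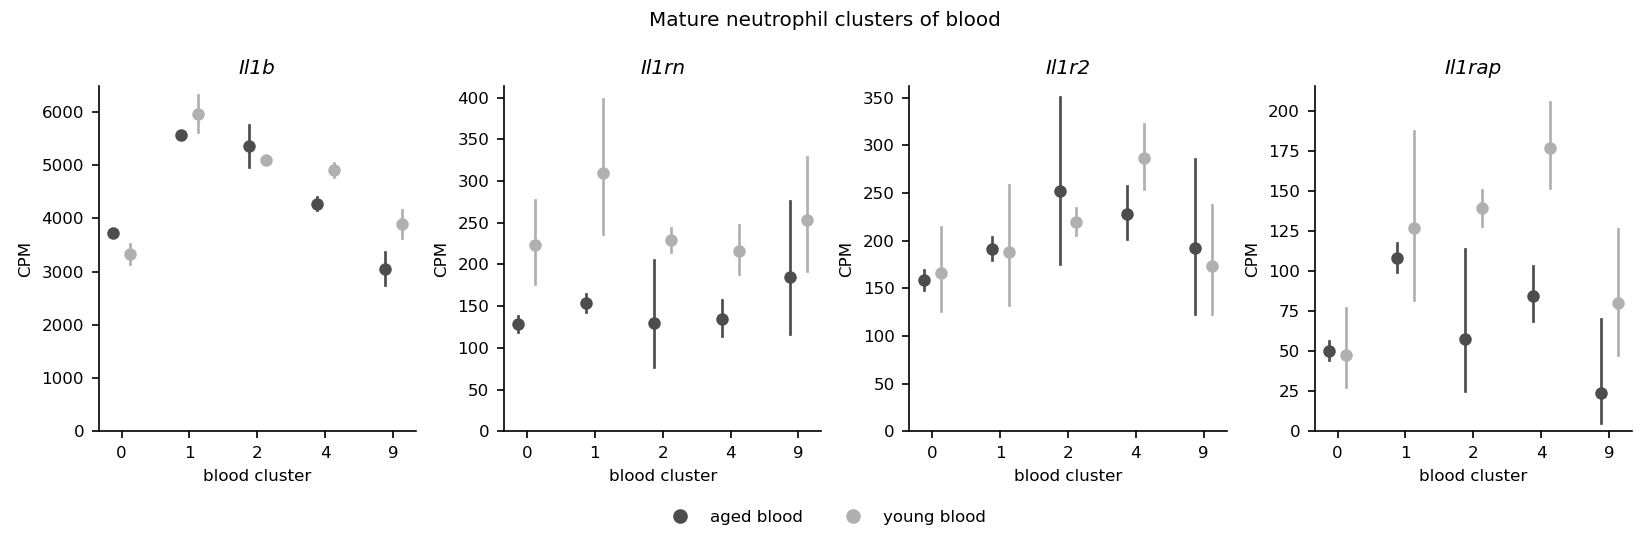
Level (CPM) of Il1b, Il1rn, Il1r2 and Il1rap in the 5 clusters of mature neutrophil-like cells of blood, aged left of young, with 95% Poisson intervals. Il1rn was lower in the aged library in each of the 5 clusters, for example 154 against 309.7 CPM in cluster 1.

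Late immature neutrophils and blood monocytes showed further differences between the aged and young libraries. In late immature cells after stroke Il1rap had a log2 ratio, aged over young, of 0.79 (0.26 to 1.34) and Nlrp3 of -1.3 (-2.14 to -0.51), and in late cells of steady marrow Nlrp3 stood at -0.88 (-1.83 to 0.01) and Il1b at 0.47. In non-classical monocytes of blood Il1rn stood at -1.87 (-2.79 to -0.87), Il1b at -0.69 (-0.91 to -0.46), Nlrp3 at -0.62 (-1.15 to -0.05) and Il1rap at -0.84 (-1.70 to 0.14). Il1b in NK cells of the same blood libraries was 53.2 CPM in aged and 103 CPM in young mice, a difference in the same direction in a class that should lack the gene. Classical monocytes of blood fell into clusters split by library, 433 aged and 4 young cells in one and 0 aged and 92 young in another.

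Across 64 sums of a cell class in a library with at least 30 cells, the 6 genes differed in which of them varied together. The Pearson r of log2(CPM + 10) was 0.875 between Il1b and Nlrp3, 0.819 between Il1rn and Il1rap, 0.742 between Il1b and Il1rn, 0.742 between Il1rn and Il1r2 and 0.416 between Il1b and Il1r2. Casp1 had r of -0.0547 to 0.273 with the other 5. These are descriptions, since the points share libraries and cell lineages. Among 7313 genes that reached 50 CPM in some class, the most similar to Il1b were Dusp1 (r = 0.918), a phosphatase gene of the early stress response, Gm15832 (0.914) and Arrdc3 (0.900). Those most similar to Il1r2 were Lrg1 (0.917), which encodes a secreted leucine-rich glycoprotein, Crispld2 (0.899) and the inhibitory receptor gene Siglece (0.890). For Il1rn they were Gm20406 (0.945), Osgin1 (0.934) and Nlrp12 (0.932), and for Il1rap Gm17619 (0.874), Rnd1 (0.866) and the chemokine gene Cxcl2 (0.856). For Nlrp3 they were Sirpb1b (0.945), Gm5150 (0.941) and Clec7a (0.929), which encodes a receptor for fungal glucans, and for Casp1 Capza2 (0.775), Glud1 (0.766) and Lpar6 (0.762). The highest r of any gene with Casp1 was thus below that of each of the other 5 genes.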

How the data were processed

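Single-cell 3′ RNA-seq libraries were made with the Chromium 3′ v3.1 kit, per the labels' protocols. The deposited values are unnormalized UMI counts for the 6 libraries in 1 table. Per the submitters' processing notes the tools were featureCounts 1.6.4 of Subread, STAR 2.5.3a, UMI-tools and Cell Ranger 3.0.2, with no role given, and the build was mm10 (GRCm38). Whether counting used strand is not stated. A cell was kept from 500 UMIs and 200 genes upward, with mitochondrial UMIs of 10% or less (2635, 2253, 6189, 7932, 5189 and 1954 cells in aged and young marrow after stroke, aged and young steady marrow and aged and young blood, less doublets). Doublets were marked by a score above 0.25, which took 0.753% and 0.53% of cells in aged and young marrow after stroke, where it found only 15.6% and 9.14% of simulated doublets, and 2.86% to 3.7% elsewhere. Libraries shared 5 to 21 cell barcodes per pair. Clustering used leidenalg 0.10.2 in Python 3.11.15 (2000 variable genes without the IL-1 lists, 30 principal components, 15 neighbours, resolution 1), within stroke marrow, steady marrow and blood. Clusters stayed unnamed where they matched markers of another lineage as well, had low UMI counts, mixed mature and dividing markers, had leading genes of another class or scored low, which left out 1124 and 1089, 1679 and 2087, and 372 and 43 cells in aged and young libraries of these contexts. Levels are CPM with exact Poisson 95% intervals, shares have exact binomial intervals, and ratios have intervals conditional on the sum of both counts, all of counting error only. Sums per library and class were tested with edgeR 4.0.16 in R 4.3.3 (TMM, filterByExpr, quasi-likelihood), adjusted over all genes, and the scripts were tested on simulated data. DESeq2 1.42.0, other scalings, filters, cluster resolutions and left-out libraries or cells were the alternatives. Named genes were the listed IL-1 genes, the genes of each other list that passed in a fit (at most 5 per list and fit by fold, otherwise the 3 with the highest mean CPM), and the 3 genes most similar to each IL-1 gene. Genes and lists were chosen with earlier results of these data known. Replicates of a group were not available, so p-values do not measure the spread between mice of a group. They rest on how far the age difference varied between contexts, or the stroke difference between ages, with that spread shared across genes.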

Additional observations from a re-analysis of the deposited data

Results flagged for a closer look

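For 4 combinations of gene and cell class the aged-over-young log2 ratio of CPM had opposite signs in stroke marrow and blood, with counting intervals on either side of 0, and the difference itself was not tested, since each group was 1 library. Il1r2 in classical monocytes stood at 0.73 in stroke marrow and at -1.92 in blood, the blood value from 9 aged and 8 young UMIs. In mature neutrophils Il1r2 stood at 0.48 in stroke marrow and -0.32 in blood, and Il1rap at 0.76 in stroke marrow and -0.84 in blood, with 25 aged mature cells in stroke marrow. Il1b in mature neutrophils stood at 0.31 in stroke marrow and -0.13 in blood. Within marrow, Il1b in dividing pre-neutrophils stood at -1.12 after stroke and 1.88 at steady state, untested likewise, at levels of at most 22.1 CPM.

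A cluster of steady marrow stayed unnamed because it matched markers of more than 1 lineage, with Retnlg, Fn1, S100a9 and Lyz2 among its leading genes. Its 127 aged cells held 262 CPM of Il1b (229 to 297, from 235 UMIs) and 47.9 CPM of Nlrp3 (34.7 to 64.5, from 43 UMIs). The highest upper bounds of a named class in aged steady marrow were 183 CPM for Il1b and 31.9 CPM for Nlrp3. Classes of young steady marrow were not part of this comparison. These cells entered no comparison of the report.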

How the results depend on the processing

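The stroke increase of Il1r2 kept its direction and passed in every alternative run, at 1.63 to 2.26 in immature neutrophils and 6.84 to 7.70 in monocytes. The number of genes called with stroke was 2083 in immature neutrophils, 516 with DESeq2 (430 higher, 86 lower) and 1214 with late clusters only, and 4915 in monocytes, 2071 with DESeq2 (1314 higher, 757 lower). With age the count was 4 in neutrophils, 96 with no filter on low counts, 13 with library sizes alone, 1 at resolution 0.5, 7 without the 10 cells per library richest in the genes, 10 without cells richest in markers of the other lineage and 18 in immature marrow cells only. Leaving out single libraries gave 3 to 164, with 164 and 102 without aged or young marrow after stroke, 83 and 77 without aged or young blood, and 10 without aged steady marrow. In monocytes it was 6, 111 with no filter, and 0 to 137 with single libraries left out, with 136 and 137 without aged or young marrow after stroke, 36 and 50 without aged or young blood, and 14 without aged steady marrow. The 0 came without young steady marrow, where edgeR called no gene and 410 genes had an unadjusted p below 0.05. The number of levels at or above 50 CPM was 46, and 40 to 50 under the alternatives.

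The following log2 fold changes had the opposite sign under an alternative, and the cause was not tested. With age in neutrophils, Il1r2 was -0.00015 with DESeq2, -0.033 with library sizes alone, -6.1e-05 with doublets kept and -0.0018 without cells richest in the other lineage, Casp1 was -0.012 with library sizes alone, and in immature marrow cells only Il1b was 0.025 and Il1rap 0.48. With single libraries left out the ranges were -0.66 to 0.10 for Il1b, -0.20 to 0.22 for Il1r2, -0.53 to 0.23 for Il1rap and -0.11 to 0.15 for Casp1. With age in monocytes, Il1r2 was -0.51 and Nlrp3 -0.0029 with DESeq2, Il1rap was 0.0043 with library sizes alone, Il1b was 0.0078 and Il1rap 0.060 without the richest cells, and Nlrp3 was -0.046 without cells richest in the other lineage. With single libraries left out the ranges were -1.19 to 0.57 for Il1r2, -0.096 to 0.087 for Il1rap and -0.19 to 0.15 for Nlrp3. With stroke in immature neutrophils, library sizes alone gave -0.20 for Il1rn and -0.24 for Casp1. Resolution 0.5 gave 0.71 for Il1b and -0.15 for Casp1, and leaving out cells richest in the other lineage gave -0.049 for Casp1. Early clusters only gave 0.85 for Il1b, -0.10 for Il1rn and -0.28 for Casp1, and late clusters only gave -0.19 for Il1rn and -0.10 for Nlrp3. With stroke in monocytes, library sizes alone gave -0.35 for Il1rn and -0.24 for Casp1, and resolution 0.5 gave -0.011 for Il1rn. Il1b was 0.89 without the richest cells and 0.58 without cells richest in the other lineage, and without the steady clusters of highest Mki67 Il1rap was -0.22 and Casp1 -0.36.

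The settings of library sizes alone, single stages, immature marrow cells only, the cells richest in other-lineage markers and the clusters of highest Mki67 were chosen after seeing the data. The planned removal of every cell with 2 or more UMIs of other-lineage markers was not run, since it left 22 and 49 cells in steady neutrophils. The fit of age in mature neutrophils alone was planned for contexts with at least 30 such cells in both ages, which left only blood (25 aged cells after stroke), so it was not run. Stroke fits with a library left out have no residual degrees of freedom and gave no test. No paired analysis was possible because every group had 1 library, number 1. Depth limits low genes, with 11 UMIs of Il1rap in each steady late class.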
